A study of Mus musculus with 12 samples.

Results

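The apolipoprotein L (Apol) family was examined in intestinal dendritic cells (DCs) with and without Cbfb, the gene of the partner protein that Runx transcription factors need to bind DNA firmly. It was represented by 10 genes chosen by symbol, *Apol6*, *Apol7a*, *Apol7b*, *Apol7c*, *Apol7e*, *Apol8*, *Apol9a*, *Apol9b*, *Apol10a* and *Apol10b*, out of 53801 gene identifiers in the count files. The family was put forward with values of these samples in view, so the values and calls of its members describe these libraries and are no independent support. Of the 10 genes, 8 passed the filter of 5 or more counts in at least 1 sample and were tested among 20580 genes, and *Apol7a* and *Apol7b* did not pass. A gene that passes through 1 group in which it is high tends to differ, so the tested members do not stand for the family as a whole.

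Bulk RNA-seq libraries were made from gut DCs of mice of mixed background, sorted as CD103+CD11b- or CD103-CD11b+ cells, with 3 libraries, from 3 different mice per the study, in each of 4 groups. The controls were labelled wild type (WT), and the other mice were labelled cKO for Cbfb (Cbfb-cKO), described in the methods as Cbfb F/F: CD11c-Cre. In these mice Cre is driven by the CD11c promoter, which is also active in some T cells. Each library came from a small number of sorted cells and was amplified by PCR, and between 2161929 and 5863484 reads per library were counted on genes. Counts over all of Cbfb overlapped between the genotypes, at 161 to 228 CPM (counts scaled to a common library total) in the WT libraries and 170 to 290 CPM in those labelled Cbfb-cKO, and so gave no check of the labels. A list of 5 DC markers was found in every group, at a summed level of 2035 to 3962 CPM. Of the sorting markers, *Itgae*, which encodes CD103, averaged 767 CPM in WT CD103+CD11b- DCs and 190 in WT CD103-CD11b+ DCs, and *Itgam*, which encodes CD11b, averaged 4.33 and 90.6 CPM.

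Apolipoprotein L proteins are related to the human serum factor APOL1 that kills trypanosomes by forming pores in their membranes. Most members lack a signal for secretion and act inside cells, on the membranes of organelles, and many are induced by interferon. *Apol7c* of the mouse encodes a protein that disrupts the membrane of phagosomes in CD103+CD11b- type DCs (cDC1s), which releases engulfed antigen into the cytosol for presentation to CD8 T cells. *Apol9a* and *Apol9b* are interferon-induced genes whose proteins bind the lipid phosphatidylethanolamine, and *Apol6* encodes a protein linked to cell death.

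All 10 genes lie on chromosome 15 (GRCm38) between 77044729 and 77757003, a span of 712 kb. The promoters of *Apol7c* and *Apol10b*, which held nearly all counts of the family, are shown first. Those of *Apol7e*, *Apol7b*, *Apol9b* and *Apol8*, which had few counts, are shown for contrast. Each stretch runs from 120 bases before to 30 bases after the RefSeq start (GRCm38.p6), and capitals mark the core of the interferon response element, GAAANNGAA, which here lies on the opposite strand and so reads TTCNNTTTC. Where 2 cores overlap, 1 run of capitals covers both.

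Apol7c, chr15:77533286-77533435, minus strand: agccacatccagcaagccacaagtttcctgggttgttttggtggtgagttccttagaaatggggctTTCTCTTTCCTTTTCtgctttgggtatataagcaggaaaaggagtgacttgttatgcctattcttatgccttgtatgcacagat
Apol10b, chr15:77596096-77596245, minus strand: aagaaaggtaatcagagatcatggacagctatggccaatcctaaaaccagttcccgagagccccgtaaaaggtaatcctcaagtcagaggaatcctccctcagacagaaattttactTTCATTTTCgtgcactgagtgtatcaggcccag
Apol7e, chr15:77698769-77698918, plus strand: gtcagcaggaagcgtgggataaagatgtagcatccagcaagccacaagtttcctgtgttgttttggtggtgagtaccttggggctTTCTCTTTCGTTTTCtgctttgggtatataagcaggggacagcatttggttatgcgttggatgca
Apol7b, chr15:77447431-77447580, minus strand: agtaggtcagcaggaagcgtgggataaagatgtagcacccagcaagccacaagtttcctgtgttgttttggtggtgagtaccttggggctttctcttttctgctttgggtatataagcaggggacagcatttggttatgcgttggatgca
Apol9b, chr15:77728952-77729101, plus strand: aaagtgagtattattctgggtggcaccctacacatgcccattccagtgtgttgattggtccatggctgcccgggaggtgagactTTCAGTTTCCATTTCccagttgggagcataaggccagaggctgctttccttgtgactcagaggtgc
Apol8, chr15:77756981-77757130, minus strand: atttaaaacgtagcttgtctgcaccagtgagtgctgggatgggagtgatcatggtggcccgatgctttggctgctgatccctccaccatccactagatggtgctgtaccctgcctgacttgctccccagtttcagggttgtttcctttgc

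Promoter windows from 250 bases before to 50 bases after the start were found for 9 of the 10 members. The interferon response core, searched on both strands, occurred in the windows of 6 of these 9, *Apol7c*, *Apol7e*, *Apol9a*, *Apol9b*, *Apol10a* and *Apol10b*, and in 8.56% of all 32851 windows of that length. The members are copies of one another and share promoter sequence, so they are not independent cases. *Apol7c* held 2 overlapping cores between 54 and 40 bases before its start. *Apol10b* held 1 core, which began 3 bases before its start and ran across it, outside the 100 bases upstream that were searched as the shorter window. In that shorter window 5 of the 9 members held a core, against 2.53% of all windows. The windows of *Apol7b* and *Apol7e* are 96.1% identical, and only the latter holds the core.

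The other motifs were rare among the members. The Runx core TGTGGT was found in the window of *Apol10a* only, after its start, and in 16.8% of all windows. The gamma-activated site TTCNNNGAA and the composite element of Ets and IRF factors GGAANNGAA were also found in that of *Apol10a* only, against 8.3% and 8.24% of all windows. The composite element and the interferon response core differ in 1 letter and were counted apart. A match of letters describes a sequence and is not a shown binding site, and the lack of a match covers this window only.

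Likeness between the members bears on how well their reads can be told apart. The proteins of *Apol7b* and *Apol7e* are 98.6% identical, those of *Apol9a* and *Apol9b* 96.8%, and that of *Apol7c* is 80.5% identical to that of *Apol7b*. *Apol10b* and *Apol10a* share 51.8%, and *Apol6* shares at most 28.1% with any other member. The authors removed reads of low mapping quality, as reads with several equal matches have. In windows of 50 bases over all annotated transcripts, 74.4% of the *Apol7c* sequence and 93.9% of the *Apol10b* sequence occurred in no other gene. This share was 27.6% for *Apol7b*, 25.9% for *Apol7e* and 47.7% for *Apol9b*, so that many reads from these 3 genes could not have been placed and their counts are uncertain. *Apol8* was unique throughout, and *Apol6* nearly so, with 98.3%.

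**Figure D1:**
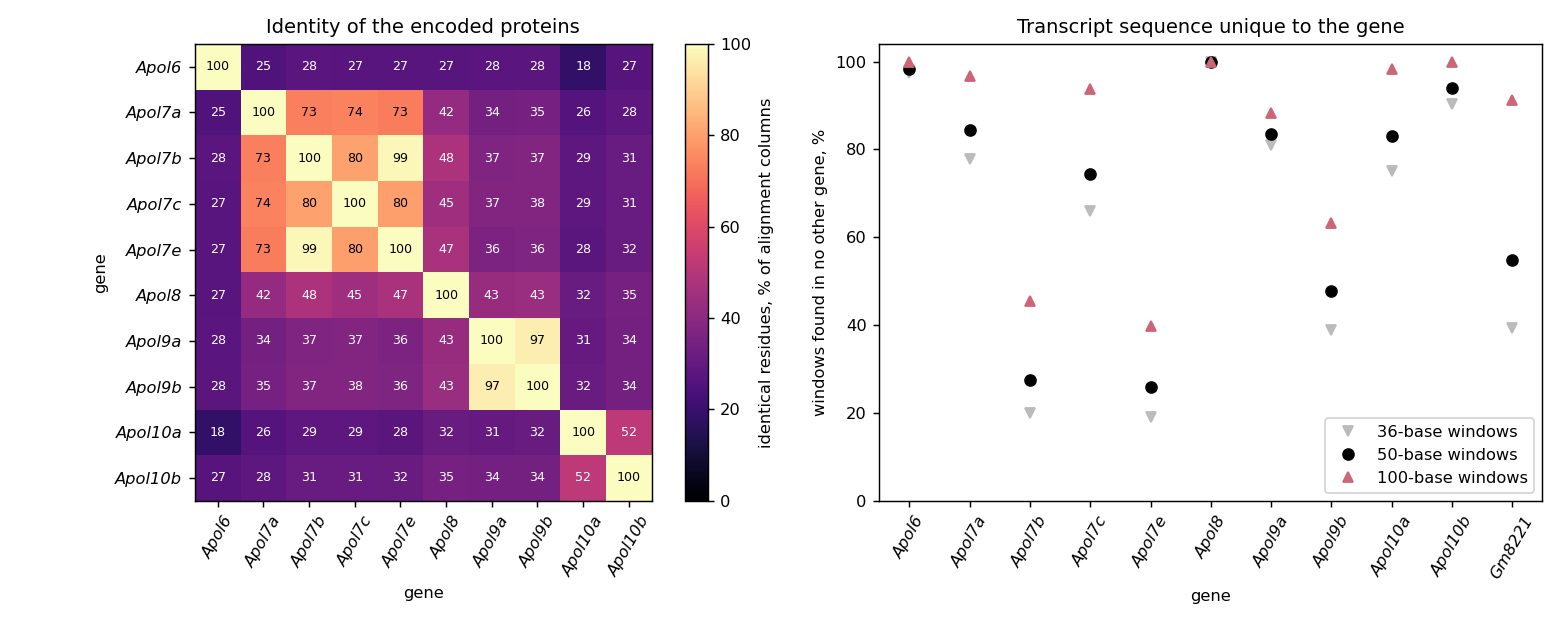
The left panel gives, for each pair of the 10 genes, the identical residues of the encoded proteins as a percentage of alignment columns, and the right panel gives the percentage of windows of 36, 50 or 100 bases of each gene's transcripts that occur in no other gene's transcripts. Identity is highest for *Apol7b* with *Apol7e* and for *Apol9a* with *Apol9b*, and *Apol7b* and *Apol7e* have the fewest unique windows at each length.

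Of the 14759 counts on the family over all 12 libraries, *Apol7c* took 63.6%, and *Apol7c* and *Apol10b* together took 97.5%. The other members had few counts, and all of them but *Apol8* were near the limit of detection. A count of 3, taken as the floor, corresponds to between 0.485 and 1.53 CPM in these libraries, a limit that covers counting error only. In 7 of the 10 genes the mean was under 10 counts per library, the highest count in any library was 20, and 40 of their 84 values were 0.

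**Figure D2:**
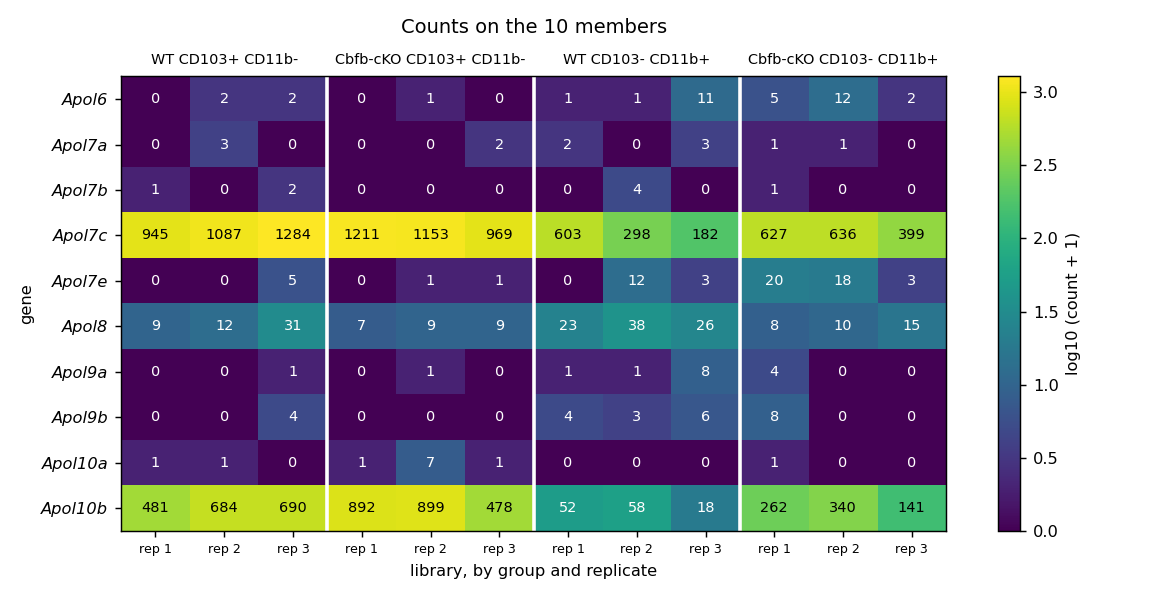
Number of reads counted on each of the 10 members (rows) in each library (columns, by group and replicate), printed in each cell and coloured by log10 of the count plus 1. *Apol7c* and *Apol10b* stand apart with up to 1284 and 899 counts, and *Apol8* is next with at most 38.

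*Apol7c* (ENSMUSG00000044309, chromosome 15, 77524852 to 77533316, minus strand) was the most abundant member in every group. In CD103+CD11b- DCs its level was 323, 249 and 208 CPM in the WT libraries and 269, 281 and 379 CPM in the Cbfb-cKO libraries. In CD103-CD11b+ DCs it was 118, 99.3 and 52.9 CPM in the WT libraries and 141, 151 and 203 CPM in the Cbfb-cKO libraries. The genotypes overlapped in the former subset, and in the latter each Cbfb-cKO library was above each WT library. Per kilobase of exon, *Apol7c* averaged 126 ± 28.4 CPM (SD, n = 3) in WT CD103+CD11b- DCs, rank 53 of 21967 protein-coding genes, and 43.7 ± 16.3 (SD, n = 3), rank 782, in WT CD103-CD11b+ DCs. In the Cbfb-cKO libraries it ranked 44 in CD103+CD11b- DCs, at 150 ± 29.3 CPM per kilobase (SD, n = 3), and 265 in CD103-CD11b+ DCs, at 80.2 ± 16.3 (SD, n = 3).

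*Apol10b* (ENSMUSG00000050014, chromosome 15, 77583819 to 77596125, minus strand) had the wider range. In CD103+CD11b- DCs its level was 164, 157 and 112 CPM in the WT libraries and 198, 219 and 187 CPM in the Cbfb-cKO libraries. In CD103-CD11b+ DCs it was 10.2, 19.3 and 5.24 CPM in the WT libraries, from 52, 58 and 18 counts, and 58.8, 80.9 and 71.9 CPM in the Cbfb-cKO libraries, from 262, 340 and 141 counts. The WT CD103-CD11b+ libraries were thus the lowest by a wide margin, and the genotypes did not overlap in either subset. Per kilobase of exon, *Apol10b* averaged 62.0 ± 12.3 CPM (SD, n = 3) in WT CD103+CD11b- DCs, rank 412, 86.6 ± 7.11 (SD, n = 3), rank 239, in Cbfb-cKO CD103+CD11b- DCs, 4.98 ± 3.07 (SD, n = 3), rank 8491, in WT CD103-CD11b+ DCs and 30.3 ± 4.78 (SD, n = 3), rank 1586, in Cbfb-cKO CD103-CD11b+ DCs.

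For both genes the order of the group means was Cbfb-cKO CD103+CD11b-, WT CD103+CD11b-, Cbfb-cKO CD103-CD11b+ and WT CD103-CD11b+ DCs. The first step in this order was within the spread of the libraries for *Apol7c*, and at the second its lowest WT CD103+CD11b- library (208 CPM) lay just above its highest Cbfb-cKO CD103-CD11b+ library (203 CPM). The ratio of *Apol7c* to *Apol10b* CPM within a library, given only to compare libraries, was 1.59 to 1.96 in WT and 1.28 to 2.03 in Cbfb-cKO CD103+CD11b- DCs. It was 5.14 to 11.6 in WT CD103-CD11b+ DCs and 1.87 to 2.83 in Cbfb-cKO CD103-CD11b+ DCs. The WT CD103-CD11b+ libraries therefore lay apart from the other 9 in this ratio.

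**Figure D3:**
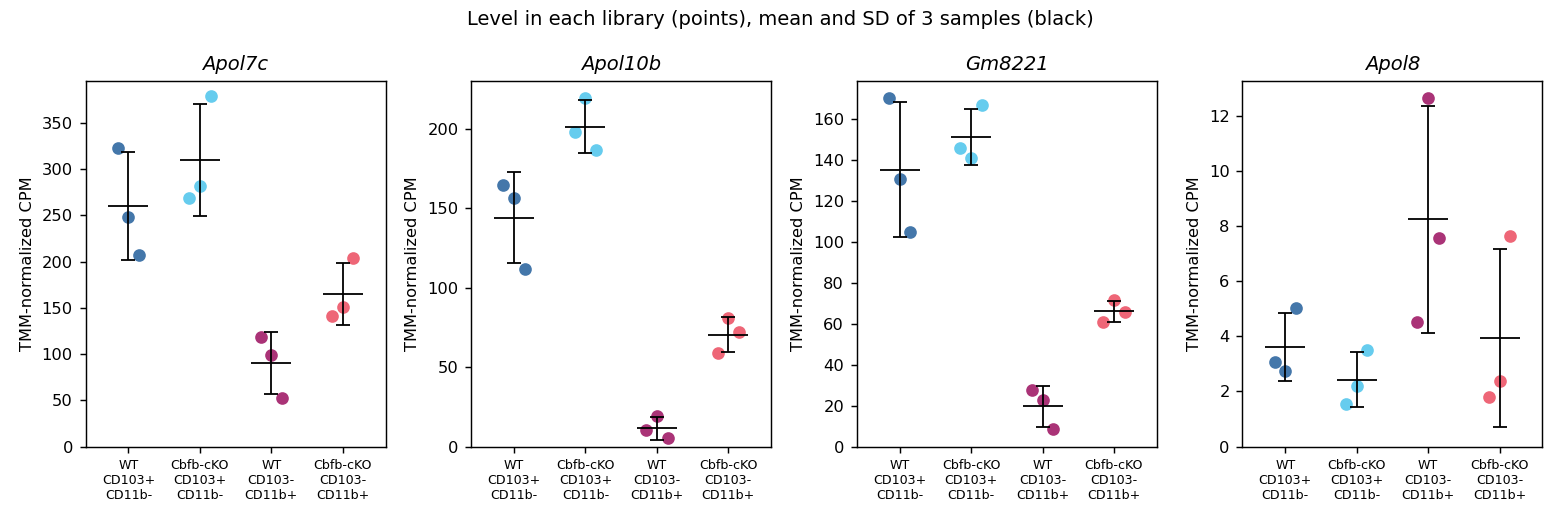
Level in CPM, normalized for library size with the TMM method, of *Apol7c*, *Apol10b*, the pseudogene *Gm8221* and *Apol8* in each library (points), with the mean and SD of the 3 libraries of each group (black). *Apol7c*, *Apol10b* and *Gm8221* are lowest in WT CD103-CD11b+ DCs, and *Apol8* shows no such order.

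The effect of the loss of Cbfb was tested in each subset by the quasi-likelihood F-test of edgeR, with p adjusted over all 20580 genes after Benjamini-Hochberg, and a gene was called at an adjusted p under 0.05 and a fold change over 1.3. In CD103-CD11b+ DCs, 1 of the 8 tested members, *Apol10b*, was called, where 1.61% of all genes were called and 1.11% were called higher. *Apol10b* was 6.16-fold higher in the Cbfb-cKO than in the WT libraries (log2 fold change 2.62, with a standard error, SE, of 0.35, adjusted p = 0.00568). With only the 6 libraries of this comparison in the fit, the adjusted p was 0.0963. *Apol7c* had a log2 fold change of 0.87 (SE 0.28) and was not called (adjusted p = 0.144), although its libraries did not overlap, as was true of 20.1% of all genes. As these are bulk samples, fewer cells of a type and less RNA per cell cannot be told apart.

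In CD103+CD11b- DCs none of the 8 tested members was called by the edgeR test or by DESeq2, where 1.02% of all genes were called by the former. The log2 fold change of *Apol10b* was 0.48 (SE 0.31, adjusted p = 0.700), and its libraries did not overlap, as was true of 18.1% of all genes. That of *Apol7c* was 0.25 (SE 0.28, adjusted p = 0.872). None of the 8 members had an unadjusted p under 0.05 in this comparison.

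The difference of the genotype effect between the subsets was tested as an interaction, which called 0.651% of all genes and none of the members. For *Apol10b* the effect was larger in CD103-CD11b+ DCs by 2.14 on the log2 scale (SE 0.46), with an unadjusted p of 0.000694 and an adjusted p of 0.0756. The call depended on the processing: the replicate block gave 2.18 (SE 0.38) with an adjusted p of 0.0287, a filter of 1 or more counts in any sample gave 0.0255, DESeq2 gave an adjusted p of 0.000874, and edgeR's likelihood ratio test gave 0.000996. Over the fits without 1 library each, the adjusted p ran from 0.0247, without replicate 2 of the WT CD103-CD11b+ DCs, to 0.211. For *Apol7c* the difference was 0.61 (SE 0.39, adjusted p = 0.654).

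The subsets differed in both abundant genes. In WT mice *Apol10b* was 12.6-fold lower in CD103-CD11b+ than in CD103+CD11b- DCs (log2 fold change -3.65, SE 0.36, adjusted p = 0.000144, edgeR). *Apol7c* was 2.88-fold lower (log2 fold change -1.52, SE 0.28, adjusted p = 0.00583, edgeR). These were the 2 members called of 8, where 18.8% of all genes were called and 7% were called lower. This comparison and that of the genotypes in CD103-CD11b+ DCs share the WT CD103-CD11b+ libraries, so their values are not independent.

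In the Cbfb-cKO mice *Apol10b* was 2.86-fold lower in CD103-CD11b+ DCs (log2 fold change -1.51, SE 0.32, adjusted p = 0.00785, edgeR). *Apol7c* was 1.88-fold lower (log2 fold change -0.91, SE 0.28), with an adjusted p of 0.0474 by edgeR. It was 0.0022 (SE 0.12) with replicate as a block, which was taken to pair the libraries in this comparison. Without the block, over the fits without 1 library each, the log2 fold change of *Apol7c* ran from -1.08 to -0.74 and its adjusted p from 0.0372 to 0.151. The call was lost without any 1 of the Cbfb-cKO CD103+CD11b- libraries and without replicate 1 or 2 of the Cbfb-cKO CD103-CD11b+ DCs. The blocked edgeR fit paired the WT libraries by number as well, so its SE rests in part on that pairing. It gave *Apol10b* a log2 fold change of -1.53 (SE 0.21, adjusted p = 0.00222). In this comparison 16.1% of all genes were called and 6.81% were called lower. The fit with the block called *Apol6* as well, higher in CD103-CD11b+ DCs (edgeR, adjusted p = 0.0400, against 0.0742 without the block), on 19 counts in all there and 1 in CD103+CD11b- DCs. *Apol6* passed the filter only through CD103-CD11b+ libraries, which favours a call in this direction.

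**Figure D4:**
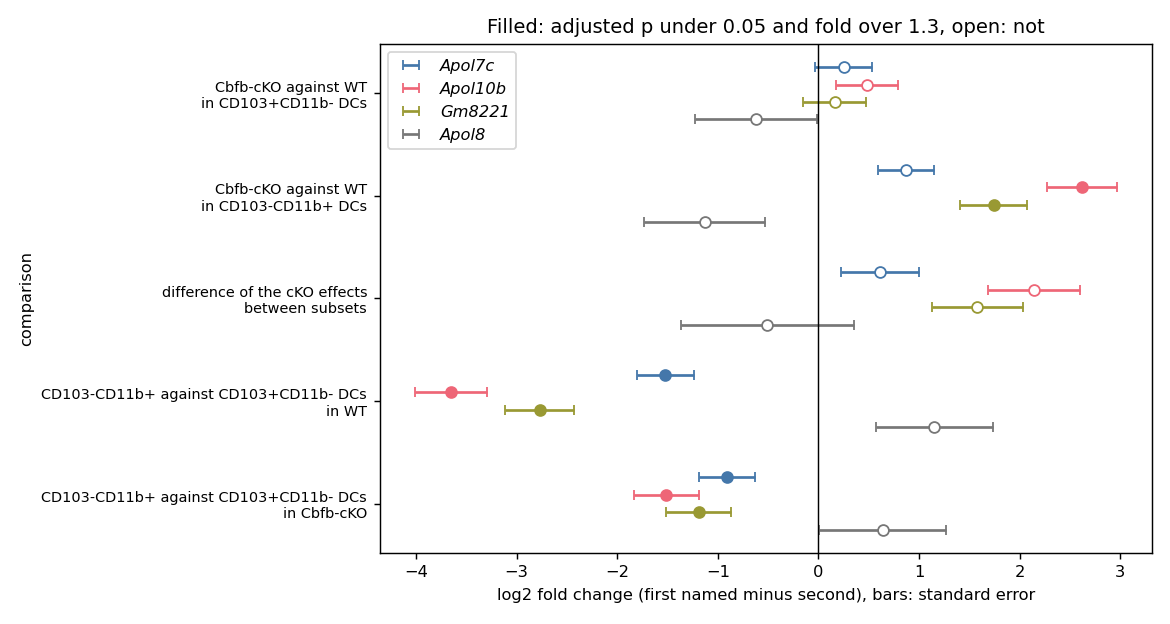
Log2 fold change (points) with its SE (bars) of *Apol7c*, *Apol10b*, *Gm8221* and *Apol8* in the 5 comparisons, filled where edgeR's adjusted p was under 0.05 with a fold change over 1.3. *Apol10b* has the largest change in both directions among the 4 genes, 2.62 between genotypes in CD103-CD11b+ DCs and -3.65 between the subsets in WT mice.

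*Apol8* was counted in all 12 libraries at a low level and in another order. Its level was 3.08, 2.75 and 5.01 CPM in WT and 1.55, 2.20 and 3.52 CPM in Cbfb-cKO CD103+CD11b- DCs. In CD103-CD11b+ DCs it was 4.50, 12.7 and 7.56 CPM in WT libraries and 1.80, 2.38 and 7.65 CPM in Cbfb-cKO libraries. The genotypes overlapped in both subsets, and the subsets overlapped in both genotypes. Its log2 fold change was -1.13 between the genotypes in CD103-CD11b+ DCs (SE 0.60, adjusted p = 0.350, edgeR) and 1.15 between the subsets in WT mice (SE 0.58, adjusted p = 0.186, edgeR). At 7 to 38 counts per library, a difference of this size could not be told from the spread between libraries.

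Of the rarely counted members, *Apol6*, *Apol7e*, *Apol9a* and *Apol9b* had most of their counts in CD103-CD11b+ DCs. *Apol6*, *Apol9a* and *Apol9b* passed the filter only through libraries of this subset, which favours that order. *Apol7e* had 5 counts in all in WT and 2 in Cbfb-cKO CD103+CD11b- DCs, and 15 and 41 in CD103-CD11b+ DCs, where the single libraries had 0, 12 and 3 counts in WT and 20, 18 and 3 in Cbfb-cKO mice. *Apol6* had 4 and 1 counts in WT and Cbfb-cKO CD103+CD11b- DCs and 13 and 19 in CD103-CD11b+ DCs, with 11 of the 13 in 1 library. *Apol9b* had 4 and 0 counts in CD103+CD11b- DCs and 13 and 8 in CD103-CD11b+ DCs, where all 8 came from 1 of the 3 Cbfb-cKO libraries. Many of these single counts were at or under the floor, where an order cannot be told from counting error, and the quasi-likelihood F-test without the block called none of these genes.

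*Apol9a*, the near-identical partner of *Apol9b*, had 1 count each in WT and Cbfb-cKO CD103+CD11b- DCs and 10 and 4 in CD103-CD11b+ DCs. *Apol10a*, the closest relative of *Apol10b*, had its few counts mainly in CD103+CD11b- DCs, with 2 counts in WT and 9 in Cbfb-cKO CD103+CD11b- DCs against 0 and 1 in the other subset. A total of 7 of those 9 counts came from 1 library. *Apol7a* had 12 counts and *Apol7b* had 8 over all libraries. Part of the exons of *Apol7e* (324 bases) overlaps *Gm36329*, and part of those of *Apol6* (64 bases) overlaps *Mb*, both on the opposite strand, and reads were counted without regard to strand.

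The genes with the pattern most like that of each member were sought among 14492 genes with a mean of 10 or more counts, by Pearson's r of log2 CPM over the 12 libraries. The libraries fall into 4 groups, so r mostly describes differences between groups and is given without a test. *Apol7c* and *Apol10b* had r = 0.937 with each other. Outside the family, the first for *Apol7c* were *Gm8221* (r = 0.975) and *Vcpip1* (r = 0.966), which encodes a deubiquitinating enzyme. The first for *Apol10b* were *Arap1* (r = 0.981), which encodes a GTPase-activating protein, and again *Gm8221* (r = 0.977). *Apol8* was most like *Mpp7* (r = 0.924), a gene for a scaffold protein of cell junctions, and *Furin* (r = 0.918), which encodes a proprotein convertase, and had r = -0.540 with *Apol7c* and r = -0.632 with *Apol10b*.

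*Arap1* averaged 428 ± 18.5 CPM in WT and 542 ± 18.1 in Cbfb-cKO CD103+CD11b- DCs (SD, n = 3). In CD103-CD11b+ DCs it averaged 132 ± 16.7 CPM in WT and 283 ± 27.7 in Cbfb-cKO libraries (SD, n = 3). The order of its 4 groups was that of *Apol7c* and *Apol10b*. *Arap1* was picked for this likeness in the same libraries, so its order and its changes give no separate support. Its log2 fold change between genotypes was 1.10 in CD103-CD11b+ DCs (SE 0.11, adjusted p = 0.00128, edgeR) and 0.34 in CD103+CD11b- DCs (SE 0.11, adjusted p = 0.234, edgeR).

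*Gm8221* (ENSMUSG00000095704) is annotated as an unprocessed pseudogene and lies within the Apol cluster, on chromosome 15 from 77621834 to 77626637 on the plus strand, between *Apol10b* and *Apol7e*. Its annotated transcript of 1110 bases is 97.0% identical to that of *Apol7c*, against 89.4% for *Apol7e* and 70.8%, over 240 columns only, for *Apol10b*. Among its 50-base windows 54.9% occurred in no other gene and 30.8% occurred in *Apol7c*. Reads of these genes can thus be confused in part, and the values of *Gm8221* are not independent of those of *Apol7c*.

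Counts on *Gm8221* did not follow those on *Apol7c* in a fixed proportion. It had 498, 570 and 649 counts in WT and 657, 576 and 426 in Cbfb-cKO CD103+CD11b- DCs, which is 44 to 54.3% of the *Apol7c* counts of the same library. In CD103-CD11b+ DCs it had 142, 68 and 29 counts in WT libraries, 15.9 to 23.5% of those of *Apol7c*, and 271, 300 and 129 in Cbfb-cKO libraries, 32.3 to 47.2%. The WT CD103-CD11b+ libraries were again the lowest in this share. Its log2 fold change between the genotypes was 1.74 in CD103-CD11b+ DCs (SE 0.33, adjusted p = 0.0304, edgeR), and between the subsets it was -2.77 in WT mice (SE 0.34, adjusted p = 0.000614, edgeR) and -1.19 in Cbfb-cKO mice (SE 0.32, adjusted p = 0.0257, edgeR). The call in WT mice held without any 1 library. That between the genotypes was lost without replicate 2 of the WT or any 1 of the Cbfb-cKO CD103-CD11b+ libraries (adjusted p from 0.0181 to 0.0905), and that between the subsets in Cbfb-cKO mice was lost without any 1 of the 6 libraries (0.0510 to 0.0768).

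The genes around the cluster were examined in the same way. Of 64 other genes in the count files within 500000 bases of the cluster, 38 were tested, 28 of them protein-coding. Between the genotypes in CD103-CD11b+ DCs, *Gm8221* alone was called, where 1.61% of all genes were, with a median log2 fold change of -0.18 for the 38 genes against -0.06 for all genes. In CD103+CD11b- DCs, where 1.02% of all genes were called, 1 of the 38 was, *Arhgap39* (log2 fold change -0.66, SE 0.12, adjusted p = 0.0355, edgeR), a gene for a GTPase-activating protein, and this call was lost without any 1 of the 6 libraries (adjusted p from 0.0513 to 0.165). Between the subsets in WT mice 6 were higher in CD103-CD11b+ DCs, with *Arhgap39* (0.78) and *Tonsl* (1.22) first by p on the log2 scale, and 2 were lower, *Adck5* (-1.76) and *Gm8221*. These are 8 of 38, where 18.8% of all genes were called, and the number fell to 3 without replicate 1 or 2 of the WT CD103+CD11b- DCs, and to 4 or 5 without replicate 2 or 3 of the WT CD103-CD11b+ DCs. In the Cbfb-cKO mice 2 were higher, *Arhgap39* (1.14) and *Slc39a4*, and the same 2 were lower as in WT mice, where 16.1% of all genes were called. Without 1 library each this number ran from 2 to 4, with 2 called without replicate 1 or 3 of the Cbfb-cKO CD103+CD11b- DCs or replicate 1 or 2 of the Cbfb-cKO CD103-CD11b+ DCs.

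The other Apol genes of the cluster were hardly counted. *Apol11a* had at most 8 counts in any library and *Apol11b* at most 3. *Apold1*, which shares the name but lies elsewhere and is known from the endothelium of vessels, was 3.76 higher on the log2 scale in CD103-CD11b+ than in CD103+CD11b- DCs of WT mice (SE 0.91, adjusted p = 0.0185, edgeR), a call that was lost without replicate 1 of the WT CD103+CD11b- DCs (adjusted p = 0.0753). *Apol7d* and *Apol10c-ps* had 5 counts each over all libraries. Of 13 other apolipoproteins, which carry lipids in blood, 7 were tested, and 1 was called between the subsets, *Apoe*, a share no higher than the 18.8% of all genes in WT and 16.1% in Cbfb-cKO mice. It was higher in CD103-CD11b+ DCs by 2.27 in WT (SE 0.57, adjusted p = 0.0219, edgeR) and 2.16 in Cbfb-cKO mice (SE 0.57, adjusted p = 0.0254, edgeR) on the log2 scale. In each genotype the call of *Apoe* was lost in 4 of the 6 fits without 1 library, with an adjusted p of up to 0.0849 in WT and 0.0806 in Cbfb-cKO mice.

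Many Apol genes answer to interferon, so 26 other interferon-stimulated genes were set beside them. In CD103-CD11b+ DCs, 5 of the 26 were called, all higher in the Cbfb-cKO libraries, where 1.61% of all genes were called and 1.11% higher, with a median log2 fold change of 0.66 for the list and -0.06 for all genes. They were *Oas3*, at 13.3 CPM in WT and 73.9 in Cbfb-cKO libraries (means of 3; log2 fold change 2.46, SE 0.30, adjusted p = 0.00329, edgeR), *Oas2* (1.48, adjusted p = 0.0176), *Zbp1* (1.26, adjusted p = 0.0233), *Isg15* (1.35, adjusted p = 0.0400) and *Oasl1* (1.16, adjusted p = 0.0416). The number called fell to 3 without replicate 1 of either genotype, to 2 without replicate 2 of the WT or 3 of the Cbfb-cKO libraries, and to 1 without replicate 3 of the WT or 2 of the Cbfb-cKO libraries, and it was 1 with the 6 libraries of this comparison and 9 by DESeq2. *Oas3* was called without any 1 library (adjusted p from 0.00514 to 0.0203). The Oas genes encode sensors of double-stranded RNA and their relatives, *Zbp1* a sensor of nucleic acids and *Isg15* a ubiquitin-like protein. In CD103+CD11b- DCs, where 1.02% of all genes were called, 1 of the 26 was, *Oas3*, higher by 1.58 (SE 0.32, adjusted p = 0.0474, edgeR) on the log2 scale, and this call was lost without any 1 of the 6 libraries (adjusted p from 0.0702 to 0.197). The number called in this subset depended on the processing, at 4 with the replicate block and 6 by DESeq2, so the counts of the subsets do not show a difference between them. The interaction, which called 0.651% of all genes, called 1 of the 26, *Oas1a* (2.60, SE 0.48, adjusted p = 0.0422, edgeR), which was lost in 10 of the 12 fits without 1 library (adjusted p up to 0.110).

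Between the subsets most of these genes went in the direction opposite to *Apol7c* and *Apol10b*. In WT mice 15 were higher and 3 lower in CD103-CD11b+ DCs, where 18.8% of all genes were called, with a median log2 fold change of 1.46 against 0.07 for all genes. *Oas2* was higher by 4.66 (SE 0.33, adjusted p = 1.85e-05, edgeR) and *Gbp3*, a guanylate-binding protein gene, by 2.62 (SE 0.22, adjusted p = 5.22e-05, edgeR). The 3 that were lower, as the abundant Apol genes were, were *Oasl1* (-2.51), the chemokine gene *Cxcl9* (-1.43) and *Mx1* (-0.96). In the Cbfb-cKO mice 17 were higher and the same 3 were lower, where 16.1% of all genes were called, with a median of 1.96 against 0.11.

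Genes of interferon receptors and signalling formed a further list of 15. Between the genotypes in CD103+CD11b- DCs edgeR called 0 of the 15 and DESeq2 called 1 higher, while 4 were higher and 1 lower at an unadjusted edgeR p under 0.05. Between the subsets 1 was higher and 5 were lower in CD103-CD11b+ DCs of WT mice, where 18.8% of all genes were called, and 4 to 7 in all were called without 1 library each. *Irf1* was the higher one (0.73), and *Tyk2* (-0.82) and *Ifnar1* (-0.98), a kinase and a chain of the type I interferon receptor, were first among the lower ones. In the Cbfb-cKO mice 6 were called, all lower, where 16.1% of all genes were called, with *Tyk2* (-0.89) and *Socs1* (-1.73) first by p.

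*Apol7c* acts on phagosomes, so genes of the phagosomal oxidase and of cross-presentation were examined, 18 of 19 of which were tested. Between the genotypes in CD103+CD11b- DCs 1 was called, *Cybb*, the catalytic subunit of the oxidase, which was lower in the Cbfb-cKO libraries (log2 fold change -1.93, SE 0.33, adjusted p = 0.0241, edgeR). This call was lost without replicate 1 or 2 of either genotype (adjusted p up to 0.107). Between the subsets in WT mice 3 were higher and 4 lower in CD103-CD11b+ DCs, 7 in all, where 18.8% of all genes were called. The number rose to 10 with the replicate block and fell to 4 without replicate 1 or 2 of the WT CD103+CD11b- DCs. *Clec9a*, the receptor for dead cells of cDC1s (-2.88), and *Rab43* (-0.97) were lower, as *Apol7c* was, and *Lgals8* (1.18) was among those that were higher. In the Cbfb-cKO mice, where 16.1% of all genes were called, 4 were higher and 5 lower, again with *Lgals8* (2.27) among the former and with *Clec9a* (-3.14) and *Rab43* (-1.28) first by p among the latter.

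Markers of cDC1s moved with *Apol7c* and *Apol10b* between the subsets, and in WT mice so did part of a list of plasmacytoid DC markers. Of its 4 markers, 2 were called lower in CD103-CD11b+ DCs of WT mice (0 to 2 without 1 library each) and 0 in Cbfb-cKO mice. Of 8 cDC1 markers, 7 were lower in CD103-CD11b+ DCs in each genotype, where 7% of all genes were called lower in WT and 6.81% in Cbfb-cKO mice. Among these was *Itgae*, whose direction was set by the sort on CD103. None of the 8 was at 0. Between the genotypes in CD103-CD11b+ DCs 1 of the 8 was called by edgeR, *Itgae*, which was lower (log2 fold change -1.89, SE 0.36, adjusted p = 0.0301). This call was lost in 4 of the 6 fits without 1 library. The rest of the list went the other way, with a higher mean in the Cbfb-cKO libraries for every marker but *Itgae*. The median log2 fold change of the 8 was 0.26, and at an unadjusted edgeR p under 0.05, 2 were higher and 1 was lower. The summed level of the 8 markers in CD103-CD11b+ DCs ran from 2052 to 2550 CPM in WT and from 1958 to 3375 CPM in Cbfb-cKO libraries. Most of this sum was *Wdfy4*, at a mean of 1753 and 1965 CPM there and 2575 CPM in WT CD103+CD11b- DCs. The other 7 markers summed to 444 to 685 CPM in WT and 380 to 758 in Cbfb-cKO CD103-CD11b+ DCs, against 2861 to 3950 CPM in WT CD103+CD11b- DCs. This sum includes *Itgae*, at a mean of 190 CPM in WT and 50.4 in Cbfb-cKO CD103-CD11b+ DCs. The fall of *Itgae* thus offsets the higher Cbfb-cKO means of the others in the sum. Mean *Clec9a* was 51.5 CPM in WT and 54.2 in Cbfb-cKO libraries of this subset, and mean *Xcr1*, a chemokine receptor of cDC1s, was 17.5 and 44.3 CPM, next to a rise of *Apol10b* from 11.6 to 70.5 CPM.

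Markers of other cell types also differed. The 4 endothelial markers summed to 1045 to 2798 CPM in WT and 352 to 1226 in Cbfb-cKO CD103-CD11b+ DCs, against 70.0 to 370 CPM in the CD103+CD11b- libraries, and the 8 macrophage markers to 156 to 511 against 13.5 to 65.4 CPM. Both lists were thus higher in the subset in which *Apol6*, *Apol7e*, *Apol9a* and *Apol9b* had most of their counts. The same was true of the B cell markers (73.9 to 469 against 19.8 to 58.7 CPM) and the cDC2 markers (1197 to 1779 against 82.1 to 631 CPM). The cDC1 markers went the other way, and no list is singled out. Between the genotypes in CD103-CD11b+ DCs, the lists of cDC2s (*Clec4a4*, 1.71), macrophages (*Adgre1*, 1.93), B cells (*Ms4a1*, 3.72) and epithelium (*Cdh17*, 4.08) each had 1 marker called higher on the log2 scale, where 1.11% of all genes were called higher. The rest of these lists did not follow that 1 marker throughout. The median log2 fold change was 0.03 for the 8 cDC2, -0.13 for the 8 macrophage, 1.55 for the 6 B cell and -1.08 for the 12 epithelial markers. Mean *Epcam* was 69.7 CPM in WT and 30.4 in Cbfb-cKO libraries, *Krt18* 30.8 and 2.93, *Mertk* 44.0 and 26.7, and the B cell gene *Ebf1* 134 and 54.6. The calls of *Ms4a1* and *Cdh17* held without any 1 library, that of *Adgre1* was lost in 4 of the 6 such fits and that of *Clec4a4* in 5. In CD103+CD11b- DCs, where 1.02% of all genes were called, 4 of 8 cDC2 markers and *Epcam* were lower in the Cbfb-cKO libraries, with 1 to 4 of the cDC2 markers called without 1 library each and *Epcam* lost in 4 of the 6 fits. The median log2 fold change of the 12 epithelial markers was 2.26 there, opposite in sign to that of *Epcam*. Most of the 12 had higher means in the Cbfb-cKO libraries, several of them from near the floor, such as *Krt20* (0.0763 and 2.23 CPM). Their summed level was 65.5 to 79.2 CPM in WT and 27.0 to 180 in Cbfb-cKO libraries, which thus lay on both sides of the WT libraries. Mean *Vil1* was 1.22 CPM in WT and 7.01 in Cbfb-cKO libraries, while *Krt18*, at 1.74 and 0.293 CPM, and *Cdh17*, at 14.5 and 10.1 CPM, had lower means in the latter, as *Epcam* had. The median of the 8 cDC2 markers was -2.26. The part of other cells in the Apol values was not tested.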

How the data were processed

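Per the labels and the study's methods, RNA of sorted small intestinal DCs was amplified by a modified RamDA-seq procedure. The authors trimmed reads with Trim Galore, mapped them to mm10 with STAR 2.7, removed reads of low mapping quality and duplicates, and counted them with htseq-count without regard to strand. The authors deposited raw counts per gene, 1 file per sample. Of the reads that the counter handled, between 59.7% and 66.1% fell on no annotated exon, and its summary lines were left out.

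Symbols were matched through GENCODE M21 (53706 of 53801 identifiers). A gene was tested if any of the 12 samples had 5 or more counts on it. A single fit to the 4 groups, with 1 shared estimate of the spread and TMM normalization, was made in R 4.3.3 with edgeR 4.0.16 and its quasi-likelihood F-test, and limma 3.58.1 was loaded with it. The procedure was tested on simulated data. Other filters, RLE, DESeq2 1.42.0, edgeR's likelihood ratio test, fits to 6 samples, a replicate block, a stricter FDR and leaving out each sample were the alternatives. CPM values are normalized for library size, and p-values measure the spread between the 3 samples of a group, which the study describes as sorted from different mice.

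Text names all 10 members, per member with 10 or more mean counts the 2 genes with the highest r, and per list the 2 genes with the smallest p in each direction. Further genes were named where a count was small, after their values were seen. Some results of these lists are not reported here. Members and lists were chosen with earlier results of these data known. Same-numbered libraries of the 2 subsets in Cbfb-cKO mice deviated together (r across 14492 genes of 0.147, 0.465 and 0.432), so the numbers were taken to pair them; elsewhere at least 1 pair was under 0.1.

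Proteins were translated from GENCODE transcripts and aligned with Biopython 1.88. Uniqueness was counted over transcripts, as no genome sequence was used here. Promoters were those of RefSeq (GRCm38.p6), with no entry used for *Apol6*. Python 3.11.15 was used with pandas 2.3.3 for tables and matplotlib 3.10.9 for plots.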

Additional observations from a re-analysis of the deposited data

How the results depend on the processing

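*Apol10b* between the genotypes in CD103-CD11b+ DCs kept its direction under all alternatives, with a log2 fold change from 2.30 to 3.16 without 1 library each. It was not called with 6 samples of the comparison only (2.67, adjusted p = 0.0963, 0 members called). Its calls between the subsets held under every alternative, as did that of *Apol7c* in WT mice.

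The interaction of *Apol10b* was called, as the only member, with a filter of 1 or more counts in any sample (2.14, adjusted p = 0.0255), by DESeq2 (2.10, 0.000874), by edgeR's likelihood ratio test (2.14, 0.000996) and with the replicate block (2.18, 0.0287). Without 1 library each it ran from 1.81 to 2.67, with 0 or 1 members called. *Apol7c* between the subsets in Cbfb-cKO mice was not called with RLE normalization (-0.91, adjusted p = 0.0528, 1 member called) and ran from -1.08 to -0.74 without 1 library each, with 1 or 2 members called. An FDR under 0.01 left 1 member there, and the likelihood ratio test called 4, adding *Apol6* and *Apol7e*. The cause of these differences was not tested.

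*Apol8* between these subsets, not called, ran from -0.17, without replicate 3 of the Cbfb-cKO CD103-CD11b+ DCs, to 0.97. Between the genotypes the replicate block gave *Apol10b* 2.68 in CD103-CD11b+ DCs (adjusted p = 0.00299) and changed no call of a member. In the gene lists it moved the interferon-stimulated genes called in CD103+CD11b- DCs from 1 to 4, and the genes called around the cluster from 1 to 3 in CD103-CD11b+ DCs and from 8 to 14 between the subsets in WT mice. Same-numbered libraries correlated at -0.180 to 0.162 there in CD103+CD11b- DCs, at -0.00251 to 0.516 in CD103-CD11b+ DCs and at -0.132 to 0.473 between the subsets in WT mice.

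Divided by unique in place of whole length, *Apol7c* averaged 170 CPM per kilobase in WT CD103+CD11b- DCs and 58.8 in WT CD103-CD11b+ DCs. With windows of 36 and 100 bases its unique share was 65.9% and 93.8%. For members with few counts, depth, reads shared with a near copy and a low level were not told apart. Of the recomputed counts of list genes called, 113 differed from the reported one by more than 1.5 times, or changed to or from 0, and 337 did not. For the counts of members called these numbers were 14 and 66. Counts that stayed at 0 are among the unchanged ones, so these shares do not compare the stability of lists and members. The number of interferon-stimulated genes called between the genotypes was 1 to 9 in CD103-CD11b+ DCs and 0 to 6 in CD103+CD11b- DCs.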
